A study of Drosophila melanogaster with 8 samples.

Results

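The control ovaries of the 2 germline driver lines in this Drosophila melanogaster series were set against each other, gene by gene. The nosGAL4 control flies were labelled nosGAL4;MKRS/TM6 and the bamGAL4 control flies bamGAL4, with 2 libraries each, which makes 4 of the 8 libraries. All came from adult ovaries dissected 1 to 3 days after eclosion. The libraries were chosen by their labels, and every gene that passed a minimum count was compared, 7657 of the 14094 genes listed. Neither control label names an RNAi construct. The other 4 libraries carry a driver with an RNAi construct against stwl over TM6 (nosGAL4;stwl RNAi/TM6 and bamGAL4>stwl RNAi/TM6), and they serve here only to look at control differences again. Driver, balancer chromosomes and fly stock differ together between the control groups, so their parts cannot be told apart. The labels do not say whether duplicates came from separate flies, so the p-values measure only the spread between libraries, which may be technical.

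GAL4 is a yeast transcription factor that switches on constructs placed behind its target sequence. The nos driver is known to act in the female germline from the stem cells onwards, whereas the bam driver acts in the daughters that leave the stem cell niche and divide into cysts. MKRS and TM6 are rearranged copies of chromosome 3 that block recombination and carry dominant markers, among them the Stubble mutation of Sb on MKRS. An ovary holds strings of egg chambers in which germline nurse cells supply the oocyte and somatic follicle cells make yolk protein, vitelline membrane and chorion.

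The nosGAL4 control libraries held 8449050 and 10389310 counts and the bamGAL4 control libraries 7473859 and 11503628. Levels below are CPM, a gene's counts scaled to a common library size, after TMM scaling, a correction for the make-up of each library, and differences are log2 bamGAL4 minus nosGAL4. A gene is called at an adjusted p under 0.05 in edgeR's quasi-likelihood test with Benjamini-Hochberg adjustment. Across the tested genes, Pearson's r of log2 CPM was 0.968 between the nosGAL4 libraries, 0.947 between the bamGAL4 libraries and 0.890 to 0.905 between the groups. The bamGAL4 duplicates stood further apart than the nosGAL4 duplicates, as the chi-square of their counts, divided by its degrees of freedom, was 133 against 12.4. The mitochondrial genome was among what differed within the bamGAL4 group: its 14 listed genes took 2.76% and 2.89% of the nosGAL4 counts but 5.66% and 0.716% of the bamGAL4 counts. The germline marker vas, a germ cell RNA helicase, stood at 472 and 477 CPM with nosGAL4 and at 423 and 393 CPM with bamGAL4. In bulk tissue, fewer cells of a type and less RNA per cell cannot be told apart.

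Between the control groups 936 genes (12.2%) were called, 474 higher with bamGAL4 (6.19%) and 462 lower (6.03%). The median log2 difference was 1.07 among the higher and -1.10 among the lower genes, against 0.03 over all genes tested. At least 2-fold differences made up 566 of the calls, 278 higher and 288 lower. The groups did not overlap for 4741 genes (61.9%), so a lack of overlap alone marks little. In 39 of the higher genes both nosGAL4 libraries stood at 0 counts, and in 9 of the lower genes both bamGAL4 libraries did. Scaling to the ribosomal protein genes moved the median of all genes to -0.87, and with it the split to 109 higher and 4397 lower. Every direction below is therefore relative to the bulk of the transcriptome. A fit without 1 library leaves 1 library in that group, so the spread is taken from the other group's pair alone. Its counts for the lists below therefore stand beside the count over all genes, and they cannot be read as the part of a single library. The count was 363 without nosGAL4 library 1, 474 without nosGAL4 library 2, 2306 without bamGAL4 library 1 and 2693 without bamGAL4 library 2.

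**Figure D1:**
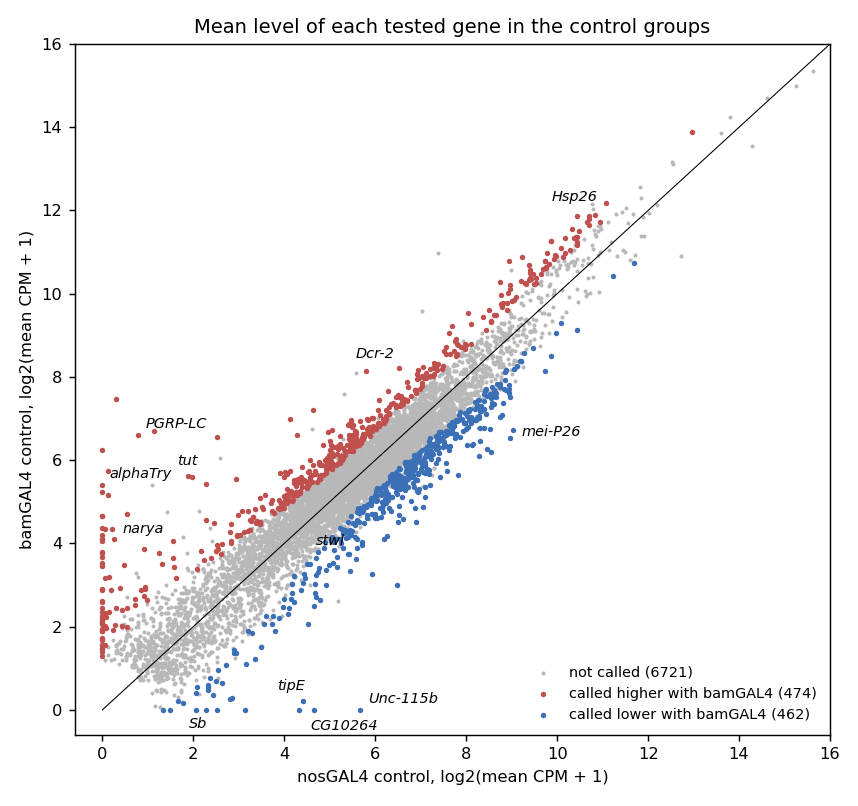
Mean level of each of the 7657 tested genes in the nosGAL4 controls (x axis) and the bamGAL4 controls (y axis), both as log2(mean CPM + 1), with 2 libraries a group and the line of equal level. Most called genes lie close to the grey cloud, while a column of genes at 0 in nosGAL4 (39 called) and a shorter row at 0 in bamGAL4 (9 called) stand apart from it.

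The genes behind the drivers and the target did not pass the test. Stwl, the chromatin protein targeted in the knockdown lines, stood at 27.4 and 18.6 CPM with nosGAL4 and at 20.7 and 21.8 CPM with bamGAL4, with a log2 difference of -0.11 (SE 0.27, adjusted p = 0.812). The groups overlapped. The gene nos, a translational repressor of germline stem cells, measured 484 and 497 CPM against 568 and 465 CPM (log2 0.07, SE 0.19, adjusted p = 0.826). The gene bam, the switch from stem cell daughter to dividing cyst, measured 47.4 and 48.0 CPM against 53.3 and 43.5 CPM (log2 0.02, SE 0.20, adjusted p = 0.962). White (w), the eye pigment transporter used as a transgene marker, measured 147 and 156 CPM against 111 and 131 CPM and was not called (log2 -0.33, SE 0.19, adjusted p = 0.294).

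Dcr-2 (2R:17574979-17581525), which cuts double-stranded RNA into short interfering RNAs and is often supplied as a transgene in RNAi stocks, differed between the control groups. It stood at 61.4 and 48.0 CPM with nosGAL4 and at 239 and 323 CPM with bamGAL4. All 4 values fell into separate ranges, with a 5.42-fold higher level with bamGAL4 (log2 2.36, SE 0.24, adjusted p = 0.00373). In the knockdown libraries Dcr-2 stood at 272 and 281 CPM with nosGAL4 and at 347 and 418 CPM with bamGAL4, so the nosGAL4 controls were the low group of the 4. No label names a Dcr-2 transgene. The gene was called under all 13 alternative settings.

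Among germline genes, tut and narya were far higher and mei-P26 far lower with bamGAL4. The gene tut (3L:8209577-8210743), whose protein acts with Bam and Bgcn to stop germ cell divisions in the testis, stood at 2.96 and 2.38 CPM with nosGAL4 and at 60.4 and 36.7 CPM with bamGAL4. The bamGAL4 libraries were both far above, 17.1-fold on average (log2 4.18, SE 0.35, adjusted p = 0.00211). In the knockdown libraries tut was at 4.15 and 1.79 CPM with nosGAL4 and at 2.53 and 3.83 CPM with bamGAL4. The bamGAL4 controls were thus the high group of the 4. The marker vas was itself lower in the knockdown libraries, at 125 and 41.7 CPM with nosGAL4 and 7.04 and 19.5 CPM with bamGAL4. Whether the difference in tut goes with the line therefore cannot be read from them.

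The gene narya (X:19475063-19476055) encodes a RING finger protein needed to make meiotic double-strand breaks. It stood at 0 and 0.381 CPM with nosGAL4 and at 21.6 and 11.02 CPM with bamGAL4, again without overlap (log2 6.22, SE 0.80, adjusted p = 0.00937). Its close relative nenya, chosen for mention after its values were seen, measured 2.05 and 3.81 CPM against 6.86 and 3.04 CPM and was not called (log2 0.72, SE 0.59, adjusted p = 0.442). Bgcn, the partner of Bam, measured 0 and 0.0951 CPM against 1.19 and 1.40 CPM. The nosGAL4 values of bgcn lie under the level of 3 counts and the bamGAL4 values above it (0.448 and 0.247 CPM in those libraries), and the gene was not called (adjusted p = 0.0602).

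The reverse pattern was found for mei-P26 (X:9163255-9189309), a TRIM-NHL protein that restrains growth and division in differentiating cysts. It stood at 539 and 496 CPM with nosGAL4 and at 105 and 104 CPM with bamGAL4, 4.96-fold lower with bamGAL4 (log2 -2.31, SE 0.19, adjusted p = 0.00199). Its knockdown values were 118 and 193 CPM with nosGAL4 and 64.2 and 103 CPM with bamGAL4. The nosGAL4 controls were thus the high group, with the same limit from the lower vas in the knockdown libraries. Of the 25 tested genes of stem cell and cyst differentiation, 1 was called higher (tut) and 5 lower, with a median of -0.32. The other 4 lower genes were pum, brat, Sxl and Rbfox1, all RNA-binding or translational regulators. Of those 5 only mei-P26 stayed called after the correction for transcript length described further on, and the median then was 0.01. The list had 2 lower calls without nosGAL4 library 1, 2 without nosGAL4 library 2, 9 without bamGAL4 library 1 and 11 without bamGAL4 library 2.

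Of the 21 germline markers 3 were called lower and none higher, with a median of -0.08. Besides mei-P26 these were orb, which controls translation in the oocyte (387 and 371 against 226 and 209 CPM, log2 -0.80), and Sxl (349 and 354 against 219 and 155 CPM, log2 -0.91). Neither was called after length correction or when a nosGAL4 library was left out, while 7 markers were lower without bamGAL4 library 1 and 9 without bamGAL4 library 2. Of 32 maternal and axis genes 1 was called higher and 5 lower, with a median of -0.19. The higher one was exu, which acts in the localization of bicoid RNA, at 383 and 400 CPM with nosGAL4 and 721 and 709 CPM with bamGAL4 (log2 0.87, SE 0.18, adjusted p = 0.0278). The 5 lower ones were Tl, clos, wisp, BicD and smg. Without nosGAL4 library 1 none of the 32 was called, and without nosGAL4 library 2 only 1, lower. Among the 32 there were 4 higher and 11 lower without bamGAL4 library 1, and without bamGAL4 library 2 there were 3 and 14. After length correction none of the 5 lower calls was left, and exu was still called. In the piRNA pathway, the small RNA system that silences transposons, vret was called higher and qin lower among 29 genes (median -0.12). The call of vret was lost without nosGAL4 library 1 (adjusted p = 0.118) or 2 (0.172), and that of qin without nosGAL4 library 1 (0.352) and with length correction (0.3002). The list had 6 lower calls without bamGAL4 library 1 and 8 without bamGAL4 library 2. In meiosis narya was called higher and mei-218, a subunit of the meiotic MCM complex, lower among 27 genes (median 0.06). The call of mei-218 was lost without nosGAL4 library 2 (adjusted p = 0.232), with all 8 libraries in 1 model (0.102) and with length correction (0.240). The list had 2 higher and 3 lower calls without bamGAL4 library 1, and without bamGAL4 library 2 it had 3 and 3.

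**Figure D2:**
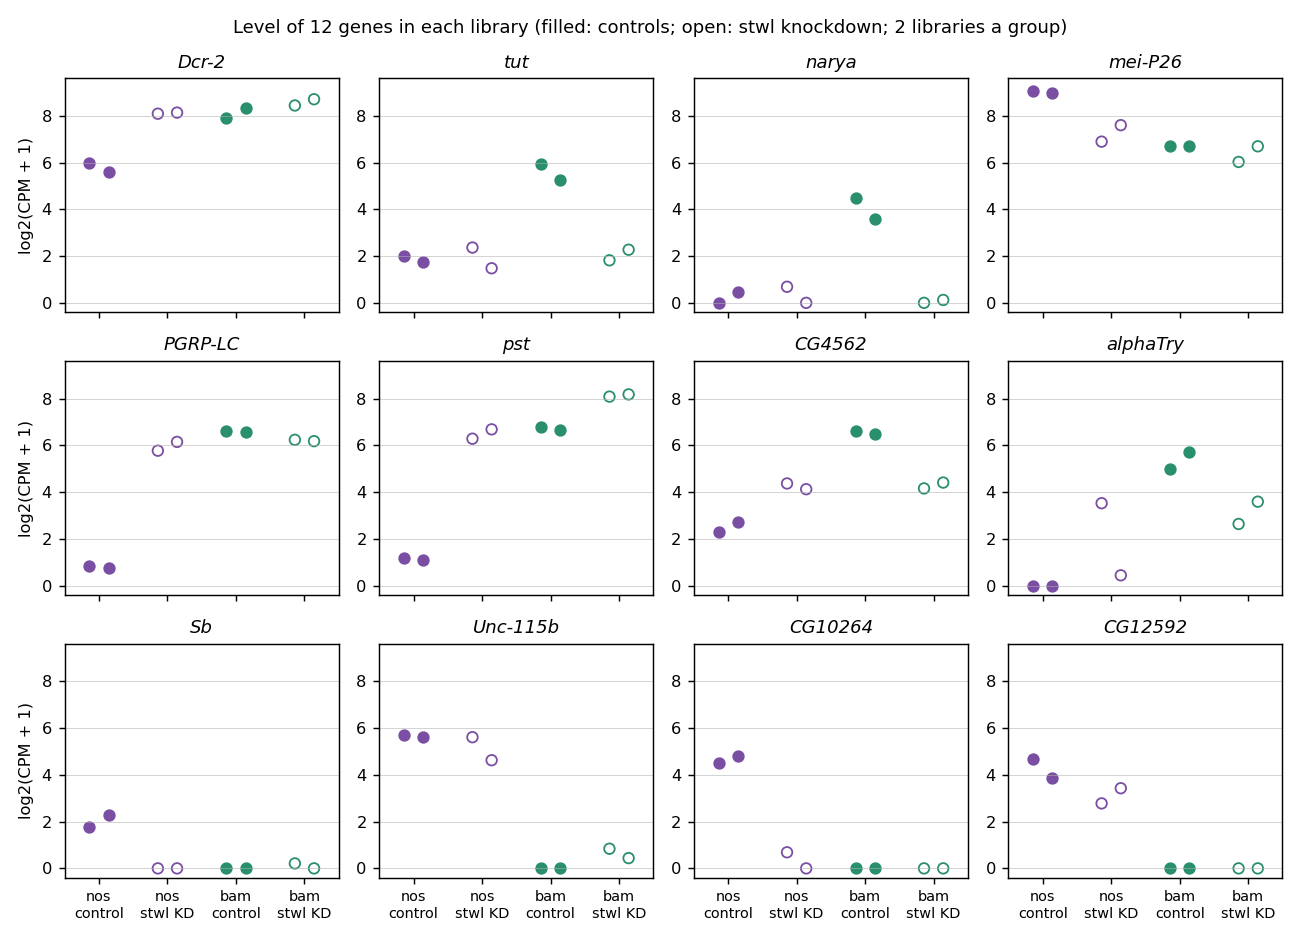
Level of 12 genes in each of the 8 libraries as log2(CPM + 1), with filled points for control and open points for knockdown (KD) libraries, 2 a group. Dcr-2, PGRP-LC and pst are low in the nosGAL4 controls only, tut and narya are high in the bamGAL4 controls only, and Unc-115b and CG12592 are near 0 in all 4 bamGAL4 libraries.

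A short set of genes was read in 1 control group and at 0 counts in the other. Unc-115b (3R:9687060-9692775), an actin-binding protein gene, stood at 51.4 and 48.8 CPM with nosGAL4 and at 0 in both bamGAL4 controls. That is at least 314-fold lower with bamGAL4, taking 3 counts over the group as the floor for every such bound here (log2 -11.90, adjusted p = 0.00067). Its knockdown values were 47.9 and 23.7 CPM with nosGAL4 and 0.791 and 0.357 CPM with bamGAL4, so the difference went with the driver line in all 8 libraries. Its neighbour and near relative Unc-115a, named after its values were seen, measured 17.3 and 22.6 CPM with nosGAL4 and 11.2 and 10.8 CPM with bamGAL4 and was not called (log2 -0.87, adjusted p = 0.083). The 2 genes can share reads, and Unc-115b overlaps another gene on the same strand.

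CG12592 (3R:10338342-10340872) followed the same pattern, at 24.4 and 13.5 CPM with nosGAL4 and 0 in both bamGAL4 controls (at least 116-fold lower, adjusted p = 0.00357). Its knockdown values were 5.86 and 9.77 CPM with nosGAL4 and 0 in both bamGAL4 libraries. CG10264 (3R:16043498-16044832, Jhbp4 in the annotation) stood at 21.6 and 27.0 CPM with nosGAL4 and 0 in both bamGAL4 controls (at least 155-fold lower, adjusted p = 0.00178), but at 0.611 and 0 CPM in the nosGAL4 knockdown and 0 in the bamGAL4 knockdown. It was therefore read almost only in the nosGAL4 controls. Driver, balancers and stock differ together in that group, and germline genes such as nos were low in the knockdown libraries.

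Sb (3R:16116161-16145284) encodes a transmembrane serine protease needed for bristle and leg shape, and its dominant allele is the marker of MKRS. It stood at 2.39 and 3.901 CPM with nosGAL4 and at 0 in both bamGAL4 controls, at least 20.2-fold lower (log2 -7.92, adjusted p = 0.0234). In the knockdown libraries, whose labels name TM6 but not MKRS, it stood at 0 in both nosGAL4 libraries and at 0.158 and 0 CPM with bamGAL4. Its call was lost with all 8 libraries in 1 model (adjusted p = 0.0513). Sb lies 71.3 kb from the end of CG10264 on 3R. The part of MKRS in the values of these 2 genes was not tested. Of the other genes listed for the balancers and transgenes, kar, a transporter gene on 3R, was higher with bamGAL4 (38.8 and 31.4 against 59.2 and 99.9 CPM, log2 1.19, adjusted p = 0.0394; 0.0995 without nosGAL4 library 2). The genes y, v, ry, e, Ubx, ss and Antp were too low to test.

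The other lower genes at 0 in both bamGAL4 controls were CG32581, CR32011, CG15465, Crg-1 and His-Psi:CR31754. CG32581 on the X chromosome stood at 6.83 and 8.85 CPM with nosGAL4 (at least 49.9-fold lower, adjusted p = 0.00873), yet at 30.4 and 32.5 CPM in the nosGAL4 and 33.9 and 32.0 CPM in the bamGAL4 knockdown. The sodium channel subunit gene tipE came close to this set, at 21.2 and 19.2 CPM with nosGAL4 and 0 and 0.329 CPM with bamGAL4 (log2 -6.53, SE 0.63, adjusted p = 0.003). In the knockdown libraries it stood at 1.47 to 2.50 CPM in both lines.

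The widest differences in abundant genes outside the lists, named after their values were seen, included 2 on 3L. PGRP-LC (3L:9338810-9348336), the receptor that senses bacterial peptidoglycan in the Imd immune pathway, stood at 0.797 and 0.666 CPM with nosGAL4 and at 97.1 and 95.3 CPM with bamGAL4 (log2 7.02, SE 0.29, adjusted p = 8.16e-05). Its knockdown values were 53.6 and 69.9 CPM with nosGAL4 and 74.4 and 71.5 CPM with bamGAL4. The gene pst (3L:7357275-7360263) stood at 1.25 and 1.14 CPM with nosGAL4 and at 109 and 98.9 CPM with bamGAL4 (log2 6.43, SE 0.27, adjusted p = 8.16e-05). For both genes the nosGAL4 controls were the low group among all 4, as for Dcr-2.

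On 3R, CG4562 stood at 3.87 and 5.61 CPM with nosGAL4 and at 97.4 and 89.4 CPM with bamGAL4 (log2 4.29, SE 0.26, adjusted p = 0.000715). Sodh-2, a sorbitol dehydrogenase, stood at 2.85 and 4.85 CPM against 39.5 and 44.6 CPM (log2 3.44, SE 0.32, adjusted p = 0.00271). In the other direction CG3808 on 3L fell from 62.5 and 57.4 CPM with nosGAL4 to 7.46 and 9.62 CPM with bamGAL4 (log2 -2.80, SE 0.24, adjusted p = 0.00211). Mnt, the repressing partner in the Myc network, stood at 228 and 219 CPM against 56.1 and 41.1 CPM (log2 -2.20, SE 0.23, adjusted p = 0.00373). All 6 of these genes were called under every alternative setting.

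The largest named differences upward were mostly in genes of enzymes that the gut secretes. Others among them were CG12016 (log2 10.54), Pebp1 (10.23) and CG30503 (9.90). CG12016 and CG30503 overlap another gene on the same strand. Of 35 listed digestive enzymes 16 passed the minimum count, all through the bamGAL4 group, and the 16 were called higher with a median of 9.62. They had to be high there to be tested, so the count is a description only. The summed level of the list was 1.25 and 0.951 CPM with nosGAL4 but 315 and 495 CPM with bamGAL4, and 7 members stood at 0 in all 4. Alpha-trypsin (alphaTry) stood at 0 in both nosGAL4 controls and at 30.4 and 51.7 CPM with bamGAL4, at least 284-fold higher (adjusted p = 0.00178). Jon65Aiv, a Jonah serine protease, stood at 0 with nosGAL4 and at 42.1 and 108 CPM with bamGAL4, at least 542-fold higher (adjusted p = 0.0115).

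Jon25Bi of the same family stood at 0 against 33.6 and 40.0 CPM (at least 242-fold higher), the lysozyme gene LysD at 0 against 19.1 and 29.2 CPM (at least 165-fold) and the amylase gene Amy-d at 0 against 13.4 and 19.2 CPM (at least 110-fold). Bace, an aspartic protease gene outside the list, also stood at 0 with nosGAL4 and at 16.9 and 31.6 CPM with bamGAL4. CG12374 stood at 0 and 0.476 CPM against 136 and 215 CPM. Of the 39 genes at 0 in the nosGAL4 controls, 10 are on the digestive list and 32 were above 0 in a nosGAL4 knockdown library. In the knockdown libraries the enzymes named here were read in both lines: alphaTry stood at 10.5 and 0.357 CPM with nosGAL4 and 5.22 and 11.1 CPM with bamGAL4. Trypsin, lysozyme and amylase genes have near-identical copies that can share reads. The part that gut tissue in the dissections has in these values was not tested. All 8 libraries in 1 model left 10 of the 16 called. In that model alphaTry, Jon65Aiv, Jon25Bi and Amy-d lost their calls (adjusted p = 0.0708, 0.0843, 0.124 and 0.0542). The call of Jon65Aiv was also lost with length correction (adjusted p = 0.158).

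Cytoplasmic ribosomal protein genes were higher with bamGAL4 as a group. Of the 83 tested, 57 were called higher and 0 lower by edgeR, with a median of 0.90. Scaling the libraries to these genes puts their median near 0 by design (-0.01), so it tests nothing about the 0.90. DESeq2 called 69 higher and none lower. They took 7.96% and 8.22% of the counts with nosGAL4 and 14.2% and 14.3% with bamGAL4. RpL10Ab stood at 538 and 446 CPM with nosGAL4 and at 1733 and 1797 CPM with bamGAL4 (log2 1.84, SE 0.20, adjusted p = 0.00518). The number called was 6 without nosGAL4 library 1, 7 without nosGAL4 library 2 and 5 after length correction, and the median then was 0.90, 0.93 and 0.39. Without bamGAL4 library 1 the median was 0.76, and without bamGAL4 library 2 it was 0.97. Ribosomal protein transcripts are short, with a median length of 708 bases.

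Heat shock genes leaned the same way. Of 19 tested, 5 were called higher and none lower, 18 lay above 0 and the median was 1.22. With scaling to ribosomal protein genes 2 were called higher and 3 lower. Hsp22, a small heat shock protein of mitochondria, stood at 19.8 and 13.2 CPM with nosGAL4 and at 108 and 142 CPM with bamGAL4 (log2 2.93, SE 0.27, adjusted p = 0.00271). Hsp26, a small heat shock protein abundant in the germline, stood at 1762 and 1853 CPM against 4095 and 3490 CPM (log2 1.07). Hsp23, DnaJ-1 and stv were the other 3. Hsp70Aa varied widely within the groups, at 254 and 75.8 CPM against 1272 and 2730 CPM, and was not called (adjusted p = 0.0605). After length correction 3 of the 19 heat shock genes were called higher, with a median of 1.05. Hsp23 and Hsp26 then lost their calls (adjusted p = 0.0927 and 0.122). The median of the list was 2.08 without nosGAL4 library 1 and 1.11 without nosGAL4 library 2. It was 1.35 without bamGAL4 library 1 and 1.03 without bamGAL4 library 2. Detoxification genes had 7 of 51 called higher, all glutathione S-transferases, and none lower, with a median of 0.50 that turned to -0.42 with ribosomal protein scaling. GstD1, GstD2 and GstD3 lie side by side on 3R. After length correction 1 of the 51 was called, without nosGAL4 library 1 there were 3, and without bamGAL4 library 2 there were 14.

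As over all genes tested, the numbers called among genes of somatic egg chamber cells changed when a library was left out. Of 25 vitelline membrane and chorion genes 1 was called higher and 3 lower, with a median of 0.19. Vm34Ca, a vitelline membrane protein gene, stood at 2291 and 1997 CPM with nosGAL4 and at 4741 and 4467 CPM with bamGAL4 (log2 1.10), while the late chorion gene Cp15 stood at 3335 and 3265 CPM against 1658 and 1739 CPM (log2 -0.96). None of the 25 was called higher without a nosGAL4 library, and 1 was called lower without each. Without bamGAL4 library 1 there were 9 higher and 5 lower, and without bamGAL4 library 2 there were 5 and 9. The median of this list turned to -0.17 without bamGAL4 library 2 and to -0.16 with length correction. Among 11 genes of yolk proteins and their uptake, Yp1 and Yp3 were called higher and apolpp, which is also on the fat body list, lower. All 3 calls are close to the threshold, at adjusted p of 0.0485, 0.0376 and 0.0443. After length correction none of the 11 was called. Yp1 stood at 1812 and 1528 CPM against 2611 and 4545 CPM, and lost its call when either nosGAL4 library was left out (adjusted p = 0.200 and 0.281). The yolk list had 5 higher and 3 lower calls without bamGAL4 library 1, and 2 and 3 without bamGAL4 library 2. Fas2 was the 1 lower call among 18 follicle and border cell markers (median -0.56), lost without nosGAL4 library 1 (adjusted p = 0.371), while 8 were lower without either bamGAL4 library. None of the 10 niche and escort cell markers was called (median -0.49), where 3 were lower at an unadjusted p under 0.05 and DESeq2 called 1 lower. In the niche and escort list 2 were lower without bamGAL4 library 1, and without bamGAL4 library 2 there were 1 higher and 2 lower. After length correction the medians were 0.0050 for the niche and escort list and -0.10 for the follicle and border cell list.

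Spermatheca and oviduct genes had the lowest median of the 26 lists, -1.82, with 5 of 8 called lower and none higher. Octbeta2R, an octopamine receptor of the oviduct, stood at 12.2 and 8.09 CPM with nosGAL4 and at 2.09 and 1.56 CPM with bamGAL4 (log2 -2.49, SE 0.45, adjusted p = 0.0216). Oamb, the other octopamine receptor on the list, stood at 13.3 and 14.1 CPM against 2.83 and 4.36 CPM (log2 -1.90). Hr39, Est-6 and Fad2 were the other 3, and 2 of the 5 stayed called after length correction and 2 without nosGAL4 library 2. The list's summed level was 140 and 151 CPM with nosGAL4 and 75.6 and 71.4 CPM with bamGAL4. The spermathecal markers Send1 and Send2 stood at 0 in 3 of the 4 control libraries.

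Muscle sheath genes had no call by edgeR among 23 (median -0.12), where 1 was higher and 4 lower at an unadjusted p under 0.05 and DESeq2 called 1 lower. The muscle list had 2 higher and 3 lower calls without bamGAL4 library 1. Haemocyte genes had 1 of 15 lower (srp) and fat body genes 1 higher (regucalcin) and 2 lower of 16. The calls of srp and regucalcin were lost without either nosGAL4 library. Without bamGAL4 library 1 there were 2 lower haemocyte genes and 4 higher and 2 lower fat body genes, and without bamGAL4 library 2 there were 6 lower haemocyte genes and 5 higher and 3 lower fat body genes. Neuronal genes had 1 of 6 lower (Syx1A, median -1.06). Testis-enriched genes had no call among 4 by edgeR, where 1 was lower at an unadjusted p under 0.05 and DESeq2 called 1 lower. Def, an antibacterial defensin, was the 1 call among 13 immune effectors, at 1.14 and 0.666 CPM with nosGAL4 and 5.22 and 7.81 CPM with bamGAL4 (log2 2.86, adjusted p = 0.026; 0.0832 without bamGAL4 library 2). The immune list had 2 higher and 1 lower call without nosGAL4 library 2, the same numbers without bamGAL4 library 1, and 1 and 2 without bamGAL4 library 2. Of 30 nucleoporin genes 3 were called higher and 2 lower, with a median of 0.01. Nup37 stood at 18.1 and 27.3 CPM against 64.0 and 63.0 CPM (log2 1.48), and Nup214 at 109 and 96.0 CPM against 31.5 and 48.6 CPM (log2 -1.35). The calls were 0 higher and 1 lower without nosGAL4 library 1, and 1 and 1 without nosGAL4 library 2. They were 7 and 5 without bamGAL4 library 1, and 6 and 10 without bamGAL4 library 2.

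Of 22 genes of H3K9 methylation and heterochromatin, Kdm4A and Kdm4B, which remove methyl groups from histone H3, were called lower and HP1c higher, with a median of -0.34. Kdm4B stood at 74.3 and 75.8 CPM with nosGAL4 and at 8.35 and 25.9 CPM with bamGAL4 (log2 -2.10, SE 0.46, adjusted p = 0.0369). Only 1 gene, lower, was called without nosGAL4 library 1, and likewise without nosGAL4 library 2. Without bamGAL4 library 1 there were 1 higher and 6 lower, and without bamGAL4 library 2 there were 2 and 8. The call of Kdm4B was lost with length correction (adjusted p = 0.120). In the ecdysone response, the steroid hormone pathway of egg chamber progression, 5 of 22 genes were called lower, among them EcR, the hormone receptor, and the steroid-induced factor Eip93F, and ImpL2 higher. Eip93F stood at 30.1 and 14.2 CPM against 4.33 and 2.06 CPM (log2 -2.84). None of the 22 was called after length correction, 2 were higher and 1 lower without nosGAL4 library 1, 2 lower without nosGAL4 library 2, and 1 higher and 8 lower without bamGAL4 library 2. Histone genes had 2 called higher and 1 lower of 21, 3 and 3 without bamGAL4 library 1 and 5 and 0 without bamGAL4 library 2, with near-identical copies that can share reads. The 10 mitochondrial genome genes had no call by edgeR or DESeq2, where none passed an unadjusted p under 0.05 in edgeR either. Other settings did call some, with 4 higher and 2 lower without a filter on low counts and 2 lower with the replicate block. Without bamGAL4 library 1 there were 8 lower and a median of -2.12, and without bamGAL4 library 2 there were 8 higher, 1 lower and a median of 1.43, where the median over all 4 libraries was 0.60.

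**Figure D3:**
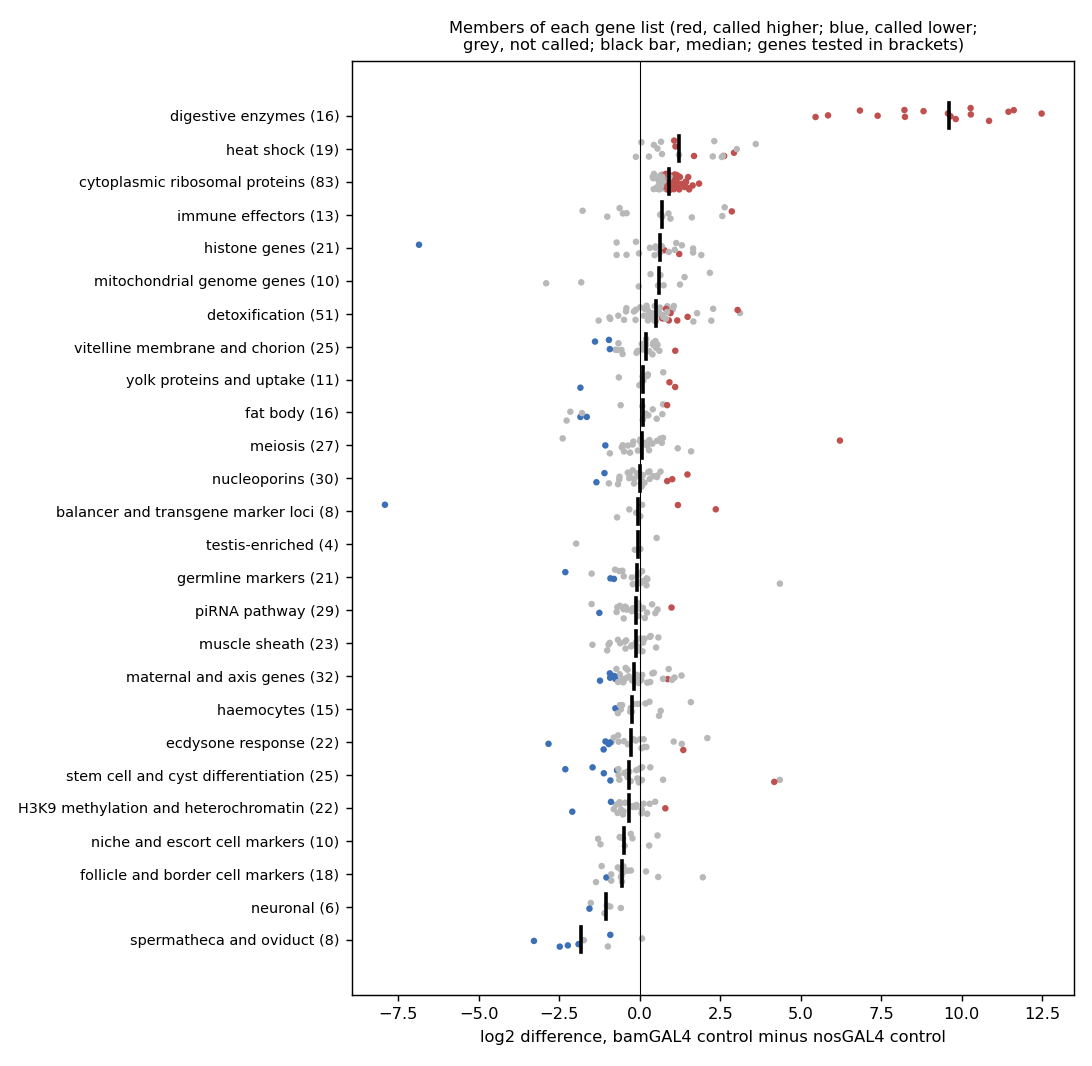
Log2 difference (bamGAL4 control minus nosGAL4 control, x axis) of each tested member of the 26 gene lists, ordered by their median (black bar). Digestive enzymes lie between 5.46 and 12.49, ribosomal protein genes form a tight group above 0 with a median of 0.90, and most other lists straddle 0 with single genes such as narya (6.22), tut (4.18) and Sb (-7.92) far out.

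Differences between the control groups followed transcript length. Genes were put into 5 equal bins of transcript length. In the bin of shortest transcripts, up to 1105 bases, 273 were called higher and 12 lower, with a median of 0.52. In the bin of longest transcripts, from 3464 bases, 7 were called higher and 322 lower, with a median of -0.54. Across 7625 genes Pearson's r of the log2 difference with log2 length was -0.38 and Spearman's rho -0.59, given as a description since genes share the same 4 libraries. The bamGAL4 duplicates differed along length from each other as well (r = 0.32 for library 2 over library 1), and the nosGAL4 duplicates less so (r = -0.14). RNA integrity was not measured in the files used here, and its part in this trend was not tested.

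After each library's trend with length was removed by a loess fit, 262 genes were called (3.42%), 143 higher and 119 lower, and 210 of the 936 calls remained in the same direction. Among these were Dcr-2, tut, narya, mei-P26, Unc-115b, CG10264, CG12592, tipE, PGRP-LC and pst, 14 of the 16 digestive enzymes, and 5 of the 57 ribosomal protein genes. Of the 83 named genes called in the comparison, 41 lost their call. Long genes that kept it included smash, a cell junction protein gene (125 and 113 against 17.9 and 25.6 CPM, log2 -2.44 before and -1.80 after the correction), and PlexA, an axon guidance receptor on chromosome 4 (440 and 302 against 86.1 and 59.4 CPM, log2 -2.35 and -1.67). Unr, a translational regulator, did not (517 and 475 against 117 and 66.4 CPM, log2 -2.43 and -1.60, adjusted p = 0.0694).

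**Figure D4:**
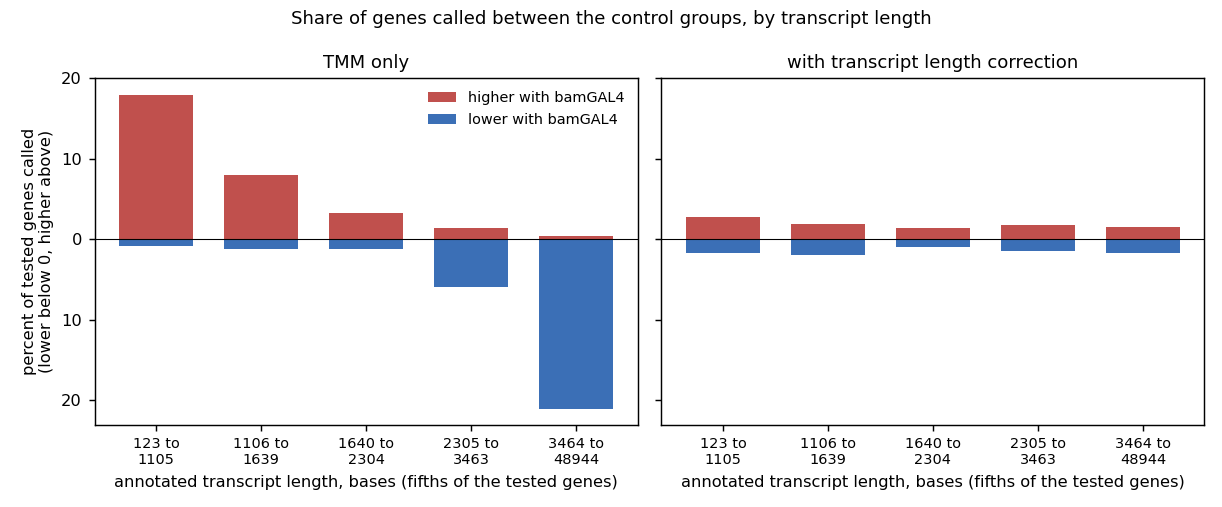
Share of tested genes called higher (above 0) and lower (below 0) with bamGAL4 in 5 equal bins of annotated transcript length, with TMM scaling only (left) and after the length correction (right). Higher calls gather in the shortest bin (17.9%) and lower calls in the longest on the left, while on the right both kinds of call appear in every bin, with 42 higher and 27 lower in the shortest bin and 22 and 14 in the middle one.

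The calls also differed among chromosome arms. On chromosome 4, the small heterochromatin-rich chromosome, 1 of 63 tested genes was called higher and 16 lower (25.4%), with a median of -0.67. Its genes are long, with a median transcript length of 3306 bases, and after the correction 4 were lower and none higher, with a median of -0.42. On the X chromosome 64 genes were called higher and 112 lower (8.29%). After length correction the share called was 4.62% on chromosome 3, 152 of 3292 genes, against 2.24% on chromosome 2, 65 of 2906, and 2.96% on the X, 40 of 1351. At least 4-fold corrected differences made up 60 genes on chromosome 3 (1.82%), 22 on chromosome 2 (0.757%), 12 on the X (0.888%) and 0 on chromosome 4. MKRS and TM6 are copies of chromosome 3, and among the control labels only that of nosGAL4 names them. Neither the difference in share between chromosomes nor the part of the balancers in it was tested.

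**Figure D5:**
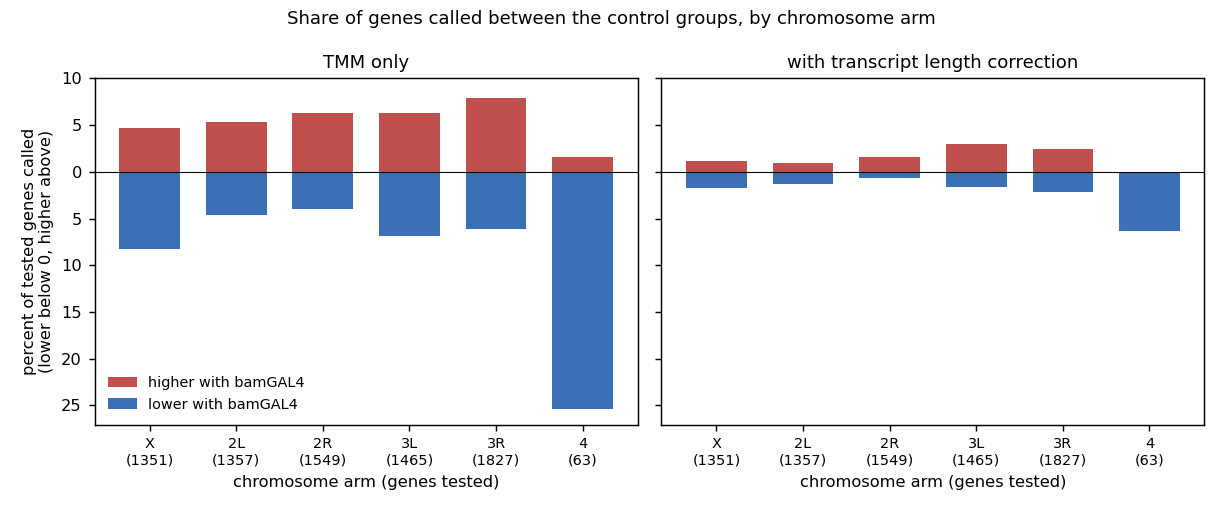
Share of tested genes called higher (above 0) and lower (below 0) with bamGAL4 on each chromosome arm, with TMM scaling only (left) and after the length correction (right), with the number of genes tested in brackets. Chromosome 4 has 25.4% of its genes lower on the left. On the right the arms 3L and 3R (4.64% and 4.60% called) exceed 2L and 2R (2.21% and 2.26%) and the X (2.96%). Chromosome 4 has 6.35% called there.

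Neighbouring genes were called in the same direction in 15 runs of 3 or more tested genes. With 12.2% of all tested genes called, the number of runs expected without regard to position was not computed. The longest, a pair on 2R of the dm6 assembly, had 4 genes each. The first held alphaTry, CG30031, deltaTry and CG12384 between 11344260 and 11359176, and the second ox, Dgkepsilon, Nacalpha and CG12374 between 12757133 and 12763825. After length correction alphaTry and deltaTry of the first run and CG12374 of the second were still called, and the other genes of these runs were not. Nacalpha, a subunit of the nascent polypeptide complex, stood at 641 and 713 CPM with nosGAL4 and 1539 and 1352 CPM with bamGAL4 (log2 1.09, adjusted p = 0.0204), which did not pass without nosGAL4 library 1 or 2 (adjusted p = 0.257 and 0.131). Ox, Dgkepsilon and CG12384 also lost their calls without either nosGAL4 library. The runs of 3 include the Jon25B, Jon65A and Jon99C protease clusters and the GstD cluster, and on 3L CG3552, CG3437 and CG3434.

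Differences between the lines were looked for again in the 4 knockdown libraries, which share no library with the controls. The germline regulator nos, at 465 CPM or more in every control library, stood at 1.31 to 4.15 CPM there. There, 83 of 8690 genes were higher with bamGAL4 (0.955%) and 41 lower (0.472%). Of the 890 control calls tested there, 9 were called in the same direction. Among 447 higher genes these were pst, Def and Mur18B, and among 443 lower genes Unc-115b, CG12592, CG2865, Arc1, CG15721 and CG42821. Arc1, a capsid-forming relative of retrotransposon Gag proteins, stood at 120 and 120 CPM with nosGAL4 and at 41.2 and 33.95 CPM with bamGAL4 (log2 -1.68, adjusted p = 0.00756), and its knockdown difference was -1.47 (adjusted p = 0.0466). The gene pst, already 6.43 apart in the controls, differed by 1.65 in the knockdown libraries (77.0 and 102 against 271 and 289 CPM, adjusted p = 0.0377).

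Another 5 control calls were called in the other direction in the knockdown libraries. Hsp22, Hsp23, Hsp26 and DnaJ-1 were higher with bamGAL4 in the controls and lower in the knockdown libraries, where Hsp22 stood at 84.7 and 75.8 CPM with nosGAL4 and 11.3 and 6.33 CPM with bamGAL4. Fad2, a desaturase gene, was lower in the controls (7.97 and 17.7 against 2.83 and 2.63 CPM) and higher in the knockdown libraries (30.4 and 19.7 against 156 and 128 CPM). The same sign was found for 46.1% of the higher and 60.0% of the lower genes, where 49.0% of all genes tested in the knockdown libraries lay above 0. Median differences by length bin ran the other way there, with -0.27 in the shortest bin and 0.15 in the longest.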

How the data were processed

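Estimated counts per gene, deposited by the authors in 1 table per driver, were joined by gene identifier. Per the submitters' processing notes reads were checked with FastQC 0.11.8, trimmed with Trim Galore 0.6.6 and processed with STAR 2.7.5b and Salmon 1.2.1 on dm6. The kit is directional per the labels, but use of strand in counting is not given in the sources used here, and 321 called genes have an exon overlapping a gene on the other strand. Counts were rounded, and genes filtered with filterByExpr (minimum count 10, total 15). The 4 control libraries (7473859 to 11503628 counts) were fitted in edgeR 4.0.16 (R 4.3.3, limma 3.58.1) with TMM, glmQLFit (robust) and glmQLFTest, with 2 residual degrees of freedom. A count of 3 corresponds to 0.247 to 0.448 CPM, and this floor covers counting error only. Transcript lengths and positions came from Ensembl's BDGP6.54 annotation, which holds 14048 of the 14094 identifiers. The test was checked on simulated counts with the same dispersion for all genes and both groups and no trend with length. That check does not cover the unequal spread and the length trend seen here.

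Genes named by rule were stwl, nos, bam, Dcr-2 and w; per direction the 8 largest differences with a symbol and 4 without, at 5 CPM or more; up to 3 members of each of 26 lists; the 10 highest in TPM; and runs of 4 called neighbours. Other genes named with a list's counts were named after their values were seen. The lists, rules and comparison were chosen with earlier results of these data known. The 20 other genes with the widest differences kept after length correction at 20 CPM or more were selected after the values were seen. Alternatives were RLE and library total scaling, ribosomal protein scaling, DESeq2 1.42.0, 2 other filters, all 8 libraries, the replicate block, length correction (loess span 0.5) and leaving out each library. The libraries numbered 1 did not deviate together (correlation -0.08).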

Additional observations from a re-analysis of the deposited data

Results flagged for a closer look

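The difference between the lines was itself different in the knockdown and the control libraries for 29 of the 98 named genes tested. The test was the interaction term of a model of all 8 libraries (edgeR, adjusted p under 0.05). Many of these genes were named for large control differences, so a smaller difference in the knockdown libraries is partly built in. The share over all genes is not given here. That model has no length correction, though the length trend ran opposite ways in the control and knockdown libraries. Values are log2 differences, bamGAL4 minus nosGAL4, in the knockdown libraries minus the same in the controls. The most negative values were -13.42 for CG17192, -12.14 for Jon99Ci, -12.09 for CG12374, -11.51 for LysD, -9.94 for CG30503 and -9.48 for Amy-p. Both nosGAL4 controls were at 0 counts for CG17192, Jon99Ci, LysD and CG30503, so the sizes of these are not measured folds. CG12374 had 0 and 5 counts in the nosGAL4 controls and Amy-p 1 and 2. The chaperone genes had -6.18 for Hsp22, -4.07 for Hsp23 and -2.94 for DnaJ-1. The vitelline membrane gene Vm34Ca had -6.68, tut -4.13, Dcr-2 -1.97 and exu -1.60. Genes of translation and detoxification had -2.18 for RpL41, -1.85 for RpS18, -1.80 for RpS14a, -1.75 for RpL10Ab, -1.45 for Nacalpha and -2.11 for GstD3.

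Mur11Da, lower with bamGAL4 in the controls, had -4.46. The positive values belonged to genes that were lower with bamGAL4 in the controls. They were 9.16 for CG32581, 6.90 for tipE, 4.63 for apolpp, 3.18 for Kdm4B, 2.98 for Oamb, 2.72 for smash, 2.61 for Octbeta2R, 2.58 for PlexA and 1.51 for Tl. CG32581 was at 0 counts in both bamGAL4 controls, so its size is not a measured fold, and tipE had 0 and 4 counts there.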

How the results depend on the processing

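Of the 83 named calls, 26 held under all 13 alternatives, among them Dcr-2, tut, narya, mei-P26, Unc-115b, CG10264 and CG12592. The 936 calls became 4506 with ribosomal protein scaling, 1778 without a filter, 609 with all 8 libraries, 1575 with the replicate block and 262 with length correction. Higher calls became 109, 886 and 723 with ribosomal protein scaling, no filter and the replicate block, 292 with library totals and 143 with length correction. Lower calls became 4397, 892 and 852 under the first 3 of these, 720 with DESeq2, 279 with all 8 libraries and 119 with length correction. Calls of at least 2-fold became 3078 with ribosomal protein scaling and 212 with length correction. Genes called the same way in the knockdown libraries rose from 9 to 20 with library totals, 69 with ribosomal protein scaling, 60 without a filter and 20 with the stricter filter. Leaving out 1 library gave 363 to 2693 calls, 184 to 1256 higher, 179 to 1437 lower and 363 to 836 of at least 2-fold.

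Signs turned for stwl (0.28 with length correction, -0.36 to 0.20 leaving out 1 library), nos (-0.0069 with library totals, -0.84 with ribosomal protein scaling, -0.077 to 0.19 leaving out 1 library) and bam (-0.060, -0.90 and -0.13 to 0.14 likewise, -0.072 with length correction). Ribosomal protein scaling also turned exu (-0.039), regucalcin (-0.044), HP1c (-0.12), His3.3A (-0.14), Dgkepsilon (-0.11), GstD1 (-0.21), GstE13 (-0.10), Nup93-2 (-0.041), 18SrRNA-Psi:CR41602 (-0.83), 28SrRNA-Psi:CR45859 (-0.54) and mt:CoIII (-0.43). The last was -0.052 with the replicate block and -0.10 with length correction. Leaving out 1 bamGAL4 library moved 18SrRNA-Psi:CR41602 between -0.13 and 0.28, 28SrRNA-Psi:CR45859 between -0.48 and 0.96, 28SrRNA-Psi:CR45851 between -0.72 and 0.051, mt:CoIII between -1.49 and 1.37 and mt:CoII between -2.59 and 0.82. Without nosGAL4 library 2 mt:CoII was 0.19. The cause was not tested. With 2 libraries a group, depth (3 counts are 0.247 to 0.448 CPM) limits folds against 0.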
